A study of Mus musculus with 10 samples.

Results

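The collagen genes of the mouse were followed in liver RNA from 10 Affymetrix whole-transcript arrays. They were chosen by symbol, as every gene named Col, a type number, a and a chain number that had a transcript cluster mapped to that symbol alone. This gave 44 collagen genes of the 22180 named genes on the arrays, and all 44 collagen genes of the supplied annotation were among them. By type number, 11 encode fibrillar chains, 6 encode the type IV chains of basement membranes and 27 encode other collagens. Values are RMA values on the log2 scale, in which a difference of 1 is a doubling of signal. A value belongs to its own probes, so levels were compared between groups and never between genes.

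Collagens are secreted matrix proteins whose chains wind into helices inside the cell and assemble outside it. In the healthy liver the fibrillar types I, III and V lie in portal tracts and around central veins, type IV and the multiplexins types XV and XVIII lie along vessels, ducts and sinusoids, and hepatic stellate cells are the main makers of fibrillar collagen when the liver scars. Activins and TGF-beta, ligands that signal through Smad proteins, are known drivers of collagen synthesis, and follistatin, which is secreted, captures activins and keeps them from their receptors.

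All livers came from fasted male mice about 2 weeks after an adeno-associated virus with the TBG promoter. That promoter is active in hepatocytes, so the cargo was aimed at hepatocytes and not at the cells best known for collagen synthesis. Bulk liver RNA does not show which cells made it. The groups were LTKO mice with FST288, an isoform of follistatin (LTKO FST288, n = 2), LTKO mice with GFP (LTKO GFP, n = 2), wild-type mice kept on a high-fat diet with FST288 (HFD FST288, n = 3) and wild-type mice on that diet with GFP (HFD GFP, n = 3). LTKO is not spelled out in the labels; it is known as a name for liver knockouts of Irs1, Irs2 and Foxo1 together. The diet of the LTKO mice and the driver of the deletion are not stated, so that genotype and diet cannot be told apart in LTKO against HFD livers. The labels do not say that each array is a separate animal, and p-values then measure the spread between these samples, which may be technical.

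The vector and the label of the LTKO livers were read first. Fst averaged 6.79 ± 0.08 in LTKO FST288 and 5.35 ± 0.06 in LTKO GFP livers (SD, n = 2 each), and 6.35 ± 0.52 in HFD FST288 and 5.27 ± 0.06 in HFD GFP livers (SD, n = 3 each). It was called in both backgrounds, with log2 changes of 1.39 to 1.59 in LTKO and 0.85 to 1.61 in HFD livers over the 24 alternatives run. The call was lost in 12 of the 24 in LTKO livers (limma adjusted p up to 0.195) and in 5 in HFD livers (up to 0.112), among them the fits without any 1 of the HFD GFP arrays in both backgrounds. In LTKO against HFD livers with GFP, Irs1, Irs2 and Foxo1 had log2 changes of -1.77, -1.21 and -1.68, each called; Irs2 lost the call without LTKO GFP replicate 1 (-0.79, adjusted p = 0.0713). HFD FST288 replicates 2 and 3 stood apart by pancreatic acinar transcripts, with a median level of 8.57 and 7.35 over 9 measured markers against 2.55 to 3.00 on the other 8 arrays. LTKO FST288 replicate 2 stood apart by macrophage transcripts, with a median level of 7.36 over 6 markers. For the collagens, calls that were lost without these arrays, or with either marker list as a covariate, are named beside the result. For the other genes not every such loss is named.

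Most collagen transcripts differed little between the 4 groups. The spread of a collagen over all 10 arrays, from its lowest to its highest value, ran from 0.19 to 1.46 on the log2 scale with a median of 0.60. The median SD within groups was 0.18 for the collagens and 0.16 for all named genes. No filter on dim genes was applied, so all 44 collagens were tested; 24 of them had a mean above the median of all gene means. In bulk liver RNA, fewer cells of a type and less RNA per cell cannot be told apart.

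**Figure D1:**
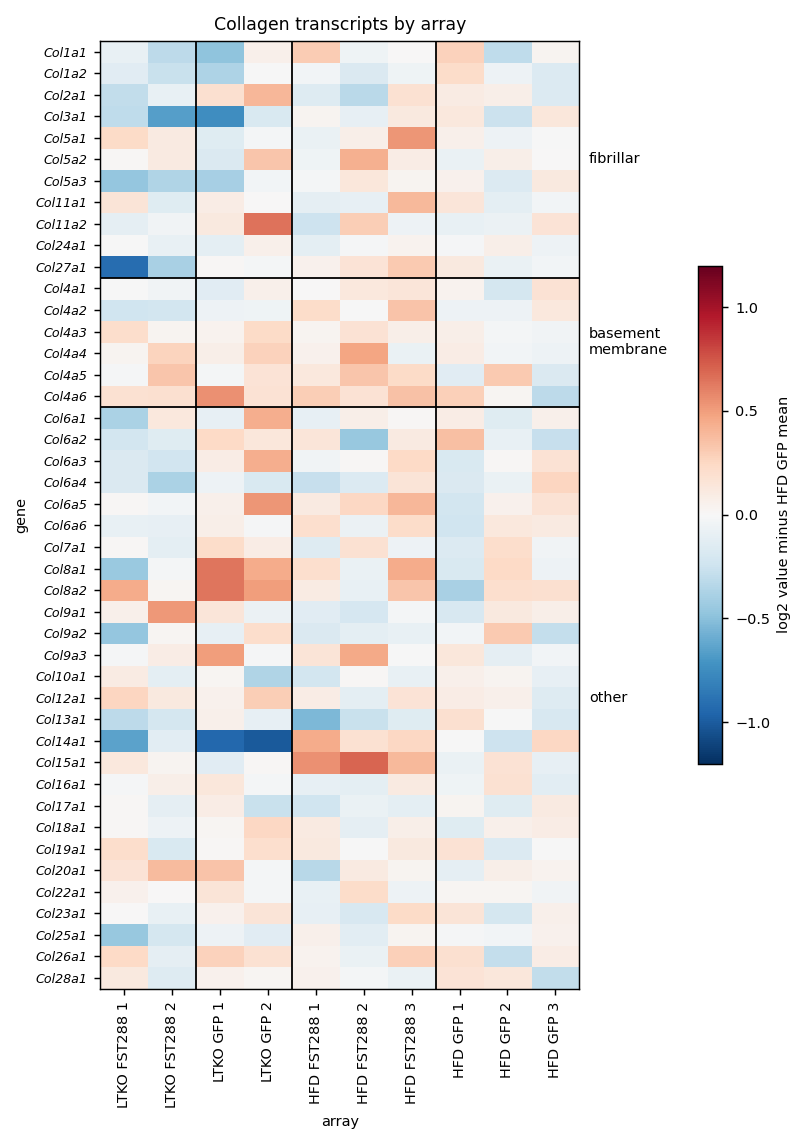
Log2 value of each of the 44 collagen genes (rows, by class) on each of the 10 arrays (columns, by group), shown as the difference from that gene's HFD GFP mean. Most cells lie near 0, and the darkest blue runs are Col14a1 on the LTKO GFP arrays and Col27a1 on LTKO FST288 replicate 1.

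Each group comparison was read from limma's moderated test, fitted to all 10 arrays with 1 mean per group, with Benjamini-Hochberg adjustment over the 22180 named genes and a call at an adjusted p under 0.05. The comparisons share arrays, since each group enters more than 1 of them, and a shift of the same group therefore appears in several. Groups of 2 or 3 arrays often do not overlap. Of the 22180 named genes, 4174 lay wholly higher and 4124 wholly lower in LTKO than in HFD livers with FST288. With GFP it was 4677 and 4264. Of the 44 collagens it was 2 and 12 with FST288, and 3 and 2 with GFP. For FST288 against GFP, 3717 genes were wholly higher and 4672 lower in LTKO livers, against 3 and 15 collagens. In HFD livers it was 2062 and 2021 genes, against 1 and 0 collagens.

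FST288 against GFP in LTKO livers called 0 of 44 collagens by limma, where 0.167% of all named genes were called. At an unadjusted p under 0.05 there were 6 collagens, 1 with a positive and 5 with a negative log2 change, against a background of 9.98% of all named genes at that threshold. The 5 were Col8a1, Col27a1, Col2a1, Col6a3 and Col11a2, and the positive one was Col14a1. The estimate was negative for 33 of 44 collagens (75.0%) and for 53.7% of all named genes, and for 26 of 44 collagens when each array was centred on its median. The median log2 change was -0.16 for the other collagens and -0.02 for the fibrillar, the basement membrane and all named genes alike, and centring turned the fibrillar and basement membrane medians to 0.02. Single arrays moved these medians in both directions. Without LTKO GFP replicate 1 they were -0.27 for the fibrillar and -0.10 for the basement membrane collagens, and without LTKO GFP replicate 2 they were 0.06 and 0.08. Without LTKO FST288 replicate 1 they were -0.15 and -0.06, and without LTKO FST288 replicate 2 they were 0.02 and -0.11. All 6 type VI chains, which form beaded filaments around cells, had negative estimates under each scaling, from -0.46 for Col6a3 to -0.12 for Col6a6 (limma adjusted p 0.415 and 0.879). A second, dimmer transcript cluster of Col6a1 went the other way (0.11).

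FST288 against GFP in HFD livers also called 0 of 44 collagens by limma, where 0.996% of all named genes were called. At an unadjusted p under 0.05 there were 2, Col15a1 with a positive and Col13a1 with a negative log2 change, against a background of 12% of all named genes. The estimate was negative for 18 of 44 collagens, and for 50.8% of all named genes. All 6 type IV genes had positive estimates under each scaling, from 0.09 for Col4a1 to 0.27 for Col4a6, with a median of 0.17, and none was called. That median was 0.09 without the acinar-rich HFD FST288 replicates 2 and 3, which leaves 1 HFD FST288 array.

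The FST288 effect in LTKO livers minus that in HFD livers was also tested, and 0 of 44 collagens were called by limma, where 0.216% of all named genes were. At an unadjusted p under 0.05 there were 4, Col27a1, Col8a1, Col6a5 and Col6a3, all with a negative difference, against a background of 12.6% of all named genes. The difference was negative for 34 of 44 collagens (77.3%) and for 52.0% of all named genes. It was negative for 31 of 44 with centred arrays and for 29 of 44 without HFD FST288 replicates 2 and 3. Its median was -0.11 for the fibrillar, -0.15 for the basement membrane and -0.18 for the other collagens, against -0.01 over all named genes, and the fibrillar median ranged from -0.35 without LTKO GFP replicate 1 to 0.08 without LTKO GFP replicate 2, and was 0.04 without LTKO FST288 replicate 2.

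LTKO against HFD livers with GFP called 1 of 44 collagens (2.27%), Col14a1, which fell. The background was higher, with 13.1% of all named genes called. At an unadjusted p under 0.05 there were 4 collagens, Col8a1 and Col8a2 with positive and Col14a1 and Col3a1 with negative log2 changes, against 25.2% of all named genes. The estimate was positive for 28 of 44 collagens and negative for 16 (36.4%), among them 20 and 7 of the 27 other collagens, and it was negative for 48.5% of all named genes. The median log2 change was -0.03 for the fibrillar, 0.10 for the basement membrane and 0.10 for the other collagens, against 0.01 over all named genes.

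LTKO against HFD livers with FST288 called 2 of 44 collagens (4.55%), Col14a1 and Col27a1, and both fell, against 10.3% of all named genes. At an unadjusted p under 0.05 there were 9 collagens, 8 of them with a negative log2 change, against 20.9% of all named genes. The estimate was negative for 33 of 44 collagens and for 11096 of the 22180 named genes. All 11 fibrillar collagens had negative estimates (10 of 11 with centred arrays), from -0.83 for Col27a1 to -0.01 for Col5a1. The median was -0.10 over the fibrillar, -0.08 over the basement membrane and -0.04 over the other collagens. Without the acinar-rich HFD FST288 replicates 2 and 3, which leaves 1 HFD FST288 array, 6 of 11 fibrillar and 24 of 44 collagens had negative estimates, and the medians were -0.04, 0.0038 and -0.03 in the same order. In neither comparison of LTKO with HFD livers was the share of collagens called above the share of all genes.

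**Figure D2:**
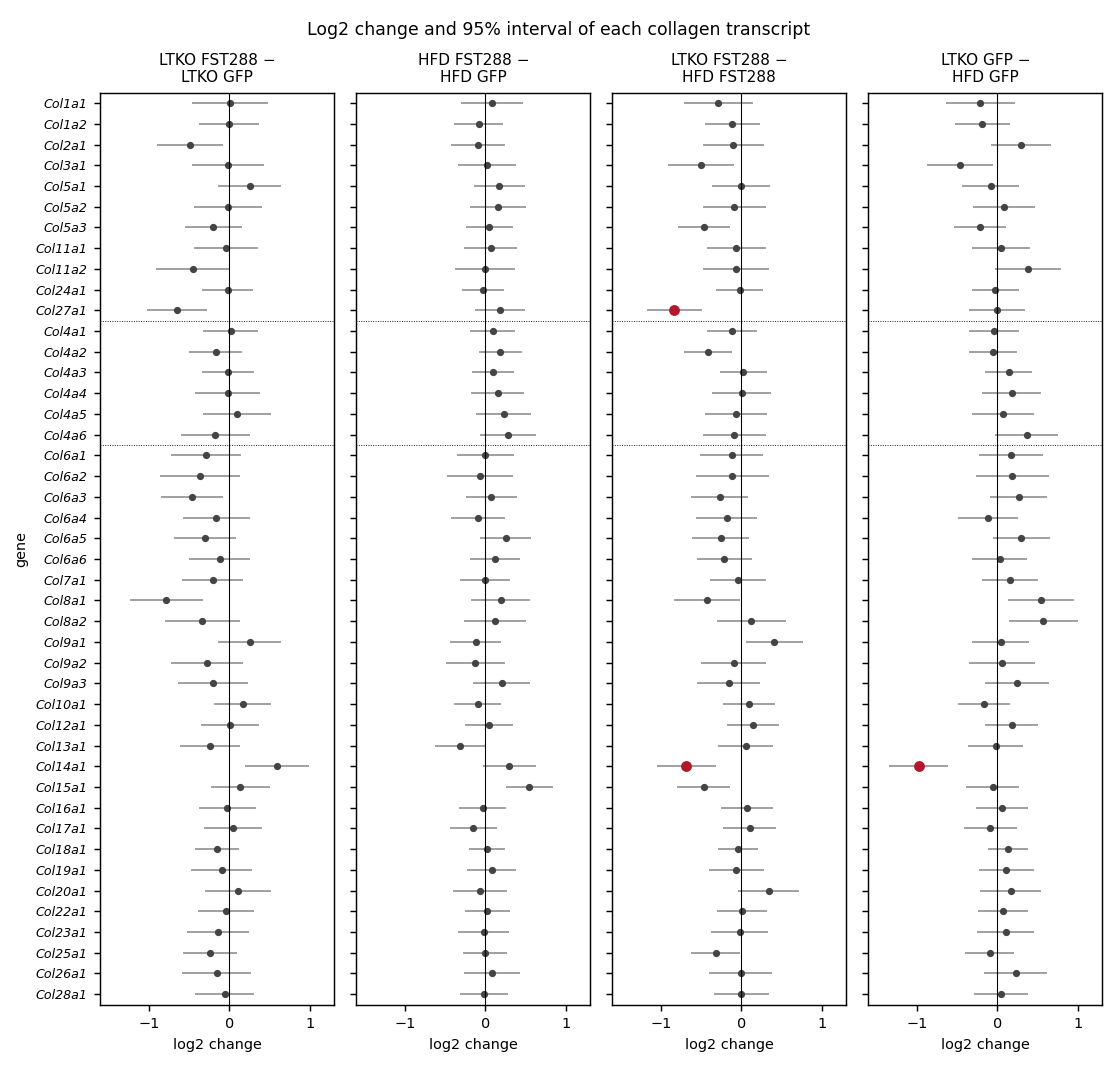
Log2 change of each of the 44 collagens (points) with its 95% interval from the limma fit (lines) in 4 comparisons, the first group of each pair minus the second; larger red points are called at an adjusted p under 0.05. The red points are Col14a1 at -0.98 in LTKO GFP minus HFD GFP, and Col14a1 at -0.68 and Col27a1 at -0.83 in LTKO FST288 minus HFD FST288.

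Col14a1 encodes type XIV collagen, a FACIT collagen that sits on the surface of type I fibrils. Its transcript was at 4.91 and 4.84 in LTKO GFP livers and at 5.85, 5.61 and 6.11 in HFD GFP livers. Both LTKO GFP arrays lay below all 3 HFD GFP arrays. Type XIV collagen transcript fell by 0.98 ± 0.17 (log2, SE) in LTKO GFP livers, 1.97-fold lower than in HFD GFP livers (limma adjusted p = 0.00164). The call held in all 24 alternatives run, with log2 changes from -1.10 to -0.85.

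With FST288, Col14a1 was at 5.21 and 5.72 in LTKO livers and at 6.30, 6.04 and 6.10 in HFD livers. The groups again did not overlap. The log2 change was -0.68 ± 0.17 (SE), 1.60-fold lower in LTKO FST288 livers (limma adjusted p = 0.0196). This call was lost in 6 of the 24 alternatives. Among them were the fits without LTKO FST288 replicate 1 (-0.42) and without HFD FST288 replicates 2 and 3 (-0.83). The fit without HFD FST288 replicate 1 also lost it (-0.61, limma adjusted p = 0.0705). The others were the acinar markers as a covariate, the replicate block and the adjustment over all transcript clusters.

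Set by vector, Col14a1 had a positive log2 change with FST288 against GFP of 0.59 ± 0.19 (SE) in LTKO livers (limma adjusted p = 0.303) and of 0.29 ± 0.15 in HFD livers (adjusted p = 0.482). Neither was called, and the difference of the 2 effects, LTKO minus HFD, was 0.30 with a 95% interval from -0.22 to 0.82. The order of the group means was HFD FST288 at 6.15 ± 0.14, HFD GFP at 5.85 ± 0.25, LTKO FST288 at 5.47 ± 0.36 and LTKO GFP at 4.88 ± 0.05 (SD). The 2 HFD groups overlapped, and the 2 LTKO groups did not.

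Col27a1 encodes type XXVII collagen, a fibrillar chain known from cartilage. Its transcript was at 3.71 and 4.23 in LTKO FST288 livers, against 4.67, 4.79 and 4.93 in HFD FST288 livers. It fell by 0.83 ± 0.16 (log2, SE) in LTKO FST288 livers, 1.78-fold lower (limma adjusted p = 0.00341). The LTKO GFP arrays were at 4.63 and 4.60 and the HFD GFP arrays at 4.73, 4.54 and 4.59, so that the groups with GFP overlapped, with a 95% interval of the change from -0.35 to 0.34. LTKO FST288 was the one group that stood below the other 3.

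Within LTKO livers the FST288 effect on Col27a1 was -0.65 ± 0.17 (SE; limma adjusted p = 0.225), and its difference from the effect in HFD livers was -0.83 ± 0.22 (adjusted p = 0.164). Neither passed the threshold. LTKO FST288 replicate 1 held the lower value, and the call against HFD FST288 livers was lost without it (-0.57, adjusted p = 0.0563). It was also lost without HFD FST288 replicates 2 and 3 (-0.71) and with the acinar markers as a covariate.

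**Figure D3:**
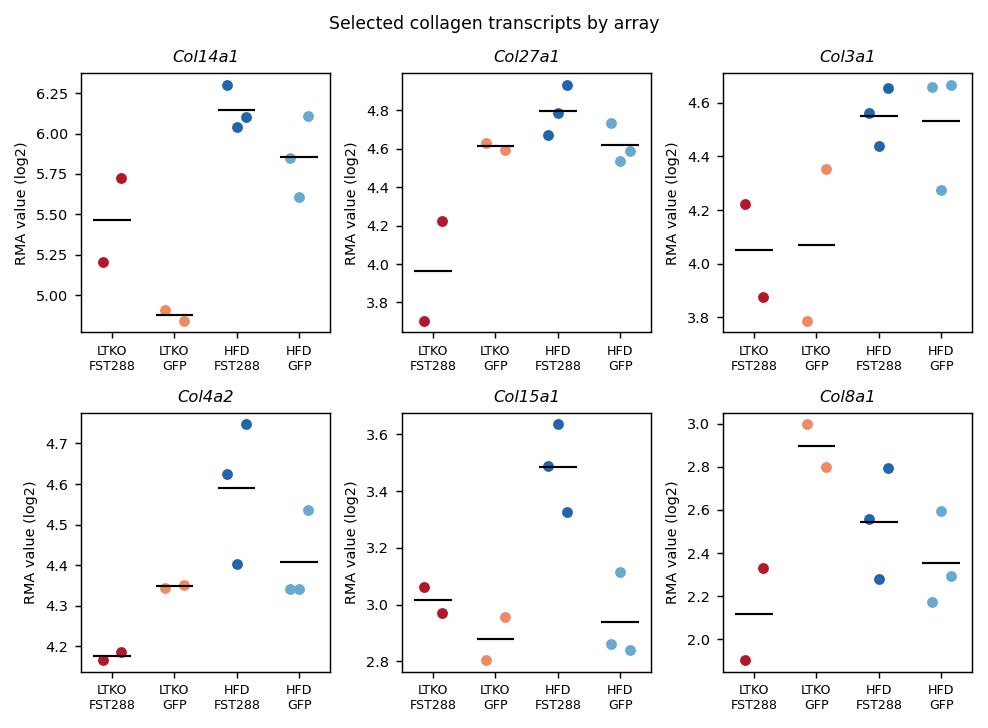
Log2 value of 6 collagen transcripts on each array (points), by group, with the group mean (line); each panel has its own axis, which does not start at 0. Col14a1 is lowest in LTKO GFP livers at 4.91 and 4.84, Col27a1 is lowest in LTKO FST288 livers at 3.71 and 4.23, and Col15a1 is highest in HFD FST288 livers at 3.49, 3.64 and 3.33.

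The promoter window of Col27a1 is shown because this collagen was called and because Foxo1 is among the genes by which LTKO is known, while follistatin acts on ligands that signal through Smad proteins. Windows of 300 bases, 250 before the start site and 50 after it, were taken from RefSeq (GRCm38.p6) and held 35 of the 44 collagens; Col14a1 was not among them. They were searched for a FoxO element (GTAAACA, both strands), a Smad box (CAGAC, both strands) and a TATA box (TATAAA, sense strand). The Col27a1 window, chr4:63215162-63215461 on the plus strand, holds 1 match, a Smad box on the opposite strand, written in capitals.
Col27a1: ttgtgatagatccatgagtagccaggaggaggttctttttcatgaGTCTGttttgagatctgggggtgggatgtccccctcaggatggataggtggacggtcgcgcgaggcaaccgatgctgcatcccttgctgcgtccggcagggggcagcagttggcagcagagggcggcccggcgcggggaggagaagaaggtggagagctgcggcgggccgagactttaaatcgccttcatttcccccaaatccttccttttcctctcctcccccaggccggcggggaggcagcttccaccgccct

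Over the collagens the FoxO element was found in 1 of 35 windows, that of Col6a1, against 4.05% of the 27025 genes in the table. The Smad box was found in 20 of 35 collagen windows (57.1%) and in 53.2% of all windows. The TATA box was found in 5 of 35 (14.3%) and in 9.77% of all windows. A match is a run of letters and not a bound site.

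The main fibrillar collagens of the liver, types I, III and V, passed no test. Col1a1, a chain of type I collagen, was at 4.49 and 4.26 in LTKO FST288, at 4.09 and 4.64 in LTKO GFP, at 4.88, 4.53 and 4.58 in HFD FST288 and at 4.85, 4.27 and 4.61 in HFD GFP livers. Its FST288 effect was 0.01 in LTKO livers, with a 95% interval from -0.46 to 0.48, and 0.08 in HFD livers, with an interval from -0.30 to 0.47. Changes within those bounds therefore remain possible. Larger ones can also go uncalled after adjustment over all named genes, as Col8a1 did at -0.78 for FST288 in LTKO livers. For Col1a2, the other chain of type I, the effects were -0.01 (-0.38 to 0.36) in LTKO livers and -0.09 (-0.39 to 0.22) in HFD livers.

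Col3a1 encodes type III collagen, which forms the reticular fibres of the liver together with type I. It was at 4.22 and 3.87 in LTKO FST288 and at 3.79 and 4.35 in LTKO GFP livers, against 4.56, 4.44 and 4.65 in HFD FST288 and 4.66, 4.28 and 4.67 in HFD GFP livers. The LTKO arrays lay below the HFD arrays with FST288 and overlapped them with GFP. The log2 change in LTKO livers was -0.46 ± 0.19 (SE) with GFP and -0.50 ± 0.19 with FST288, and the limma adjusted p was 0.138 and 0.127. Without LTKO GFP replicate 2, the higher of the pair, the change with GFP was -0.75 and was called (adjusted p = 0.0398).

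Col5a3, a chain of type V collagen, which starts fibrils and limits their width, was at 3.74 and 3.84 in LTKO FST288 livers, against 4.18, 4.34 and 4.23 in HFD FST288 livers. The groups did not overlap, and the log2 change of -0.46 ± 0.15 (SE) had a limma adjusted p of 0.0734. With GFP it was at 3.81 and 4.17 in LTKO and at 4.26, 4.04 and 4.32 in HFD livers, with a log2 change of -0.22 (adjusted p = 0.422). For Col5a1 and Col5a2 the same comparisons gave log2 changes from -0.09 to 0.08. The remaining fibrillar genes, Col2a1, Col11a1, Col11a2 and Col24a1, belong to types best known from cartilage and bone, and none was called.

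Type IV collagen forms the sheet of basement membranes, and Col4a1 and Col4a2 encode its most widespread chains. Col4a1 was at 4.30 and 4.26 in LTKO FST288, 4.17 and 4.36 in LTKO GFP, 4.31, 4.43 and 4.45 in HFD FST288 and 4.34, 4.09 and 4.48 in HFD GFP livers. All of its log2 changes lay between -0.12 and 0.09. Col4a2 was at 4.17 and 4.19 in LTKO FST288, 4.34 and 4.35 in LTKO GFP, 4.62, 4.40 and 4.75 in HFD FST288 and 4.34, 4.34 and 4.54 in HFD GFP livers. Both LTKO FST288 arrays lay below all of the others. The log2 change of Col4a2 in LTKO against HFD livers with FST288 was -0.42 ± 0.14 (SE; limma adjusted p = 0.0804), and with GFP it was -0.06 ± 0.14 (adjusted p = 0.850).

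Col4a1 and Col4a2 lie head to head and are known to share a promoter, and the window of Col4a2 is shown for that reason. It spans chr8:11312555-11312854 on the plus strand of GRCm38.p6, and the 78 bases it shares with the window of Col4a1 are in capitals. The RefSeq start sites of the 2 genes are 21 bases apart, at 11312826 for Col4a1 on the minus strand and at 11312805 for Col4a2. The annotated transcripts therefore overlap there, and the capitals mark shared window bases and not a mapped promoter.
Col4a2: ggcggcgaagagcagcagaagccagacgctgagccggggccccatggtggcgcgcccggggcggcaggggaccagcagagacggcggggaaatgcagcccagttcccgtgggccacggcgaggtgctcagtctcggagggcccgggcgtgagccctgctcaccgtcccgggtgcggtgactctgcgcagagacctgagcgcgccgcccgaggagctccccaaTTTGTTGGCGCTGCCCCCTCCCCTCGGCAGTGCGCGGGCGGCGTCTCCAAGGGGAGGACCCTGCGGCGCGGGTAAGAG

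In the order of the annotation Col4a1 is also the nearest protein-coding neighbour of Irs2 on chromosome 8, with 0 protein-coding genes between them. Col4a4 and Irs1 lie on chromosome 1 with 1 protein-coding gene, Rhbdd1, between them. While Irs2 and Irs1 were lower in LTKO GFP livers by more than 1 on the log2 scale, the log2 change was -0.04 for Col4a1 (95% interval -0.35 to 0.27), 0.17 for Col4a4 (-0.19 to 0.54) and 0.14 for Col4a3 (-0.16 to 0.43). None of these 3 collagens was called.

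Col4a5 and Col4a6 encode chains found in fewer basement membranes and are neighbours on chromosome X. Col4a6 was at 2.67 and 2.69 in LTKO FST288, 3.04 and 2.67 in LTKO GFP, 2.79, 2.67 and 2.85 in HFD FST288 and 2.78, 2.52 and 2.18 in HFD GFP livers. No group stood clear of the others. Col4a5 was at 2.66 and 3.00 in LTKO FST288, 2.64 and 2.83 in LTKO GFP, 2.79, 2.99 and 2.90 in HFD FST288 and 2.53, 2.98 and 2.49 in HFD GFP livers. The smallest limma adjusted p was 0.234 for Col4a6, in LTKO against HFD livers with GFP, and 0.630 for Col4a5, in FST288 against GFP in HFD livers.

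Col15a1 encodes type XV collagen, a multiplexin of the basement membrane zone around vessels. It was at 3.49, 3.64 and 3.33 in HFD FST288 livers, against 2.86, 3.12 and 2.84 in HFD GFP livers. All 3 HFD FST288 arrays lay above all 3 HFD GFP arrays. The log2 change was 0.55 ± 0.14 (SE), the largest positive one of the 44 collagens in that comparison, with a limma adjusted p of 0.0902. LTKO FST288 livers were at 3.06 and 2.97 and LTKO GFP livers at 2.81 and 2.96, with a log2 change of 0.14 ± 0.17 (adjusted p = 0.854). The difference of the effects, LTKO minus HFD, was -0.41 with a 95% interval from -0.87 to 0.06. LTKO against HFD livers with FST288 gave a log2 change of -0.47 (adjusted p = 0.0747). HFD FST288 replicate 1, which lacked the acinar transcripts, was at 3.49, between the acinar-rich replicates 2 and 3. Whether pancreatic tissue had a part in the Col15a1 change was not tested beyond the fits without those 2 arrays or with the acinar covariate.

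The window of Col15a1 is shown as that of the collagen with the smallest p for FST288 in HFD livers. It spans chr4:47207762-47208061 on the plus strand of GRCm38.p6 and holds 1 match, a Smad box on the opposite strand, written in capitals.
Col15a1: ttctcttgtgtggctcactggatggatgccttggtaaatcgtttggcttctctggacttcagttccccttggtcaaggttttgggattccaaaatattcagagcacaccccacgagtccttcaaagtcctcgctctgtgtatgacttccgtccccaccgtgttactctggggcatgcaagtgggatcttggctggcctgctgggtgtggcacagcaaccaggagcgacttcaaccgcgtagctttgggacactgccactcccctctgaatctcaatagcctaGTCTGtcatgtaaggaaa

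Col18a1 encodes type XVIII collagen, the other multiplexin, which hepatocytes are known to make. It varied little, at 6.89 and 6.82 in LTKO FST288, 6.90 and 7.13 in LTKO GFP, 6.98, 6.77 and 6.95 in HFD FST288 and 6.74, 6.94 and 6.96 in HFD GFP livers. Its FST288 effect was -0.16 (95% interval -0.43 to 0.11) in LTKO livers and 0.02 (-0.20 to 0.24) in HFD livers.

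Col8a1 and Col8a2 encode the chains of type VIII collagen, a network collagen of vessel walls. Col8a1 was at 1.90 and 2.33 in LTKO FST288 livers and at 3.00 and 2.80 in LTKO GFP livers, against 2.56, 2.28 and 2.80 in HFD FST288 and 2.17, 2.59 and 2.30 in HFD GFP livers. The LTKO GFP arrays were the highest and did not overlap the LTKO FST288 or the HFD GFP arrays. The log2 change was -0.78 ± 0.21 (SE) for FST288 in LTKO livers and 0.54 ± 0.19 for LTKO against HFD livers with GFP, and the limma adjusted p was 0.220 and 0.0820. Neither passed the threshold.

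Partner genes of the collagens and markers of cell types were read from the same fits. Over all named genes, LTKO against HFD livers called 10.3% with FST288 and 13.1% with GFP. The number of genes measured is given with each list below. In LTKO against HFD livers with FST288, 27 of the listed genes were called, and 21 of these calls were lost without the acinar-rich HFD FST288 replicates 2 and 3. That fit has 1 HFD FST288 array, and over all named genes it called 939 in place of 2293. The 6 listed genes that kept their call there were Mmp14, Itga1, Lama3, Dpt, Rgs5 and Cps1. With the macrophage markers as a covariate, an alternative chosen after seeing the data, 17 of the 27 calls were lost, and over all named genes 859 were called. In LTKO against HFD livers with GFP, 18 listed genes were called, of which Lrat and Cps1 lost the call without the acinar-rich arrays.

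Genes that fold, trim and export collagen were called in both directions, at a share near that of all named genes. Of 28 genes listed for collagen processing, 25 were measured, and 0 were called for FST288 against GFP in LTKO or in HFD livers, with 0 and 3 at an unadjusted p under 0.05 by limma. Between LTKO and HFD livers 4 of 25 were called with GFP (2 rose and 2 fell), against 13.1% of all named genes, and 3 of 25 with FST288 (1 rose and 2 fell), against 10.3%. Crtap, the partner protein of a collagen prolyl 3-hydroxylase, rose in both. It averaged 5.62 ± 0.30 in LTKO GFP and 4.73 ± 0.23 in HFD GFP livers, and 5.70 ± 0.12 in LTKO FST288 and 4.71 ± 0.30 in HFD FST288 livers (SD). With FST288 the Crtap call was lost without the acinar-rich arrays (0.65, limma adjusted p = 0.205) and with the acinar or the macrophage covariate, and with GFP it was lost without LTKO GFP replicate 1 (0.67, adjusted p = 0.102). Bmp1, the proteinase that cuts the carboxyl end off procollagen, rose with GFP (log2 change 0.71), and P3h2, a prolyl 3-hydroxylase, fell with GFP (-0.71). Ctage5, which helps to load large cargo at the exit sites of the endoplasmic reticulum, fell in both (-0.62 with GFP and -0.46 with FST288). Without LTKO GFP replicate 2 the calls for Bmp1 (0.53, adjusted p = 0.101) and P3h2 (-0.61, adjusted p = 0.113) were lost. Ctage5 kept its call in all 24 alternatives with GFP, and with FST288 it lost the call without the acinar-rich arrays (-0.43, adjusted p = 0.0817) and with the macrophage covariate.

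Serpinh1 encodes the collagen chaperone known as HSP47. It was at 3.76 and 3.75 in LTKO FST288 livers, against 4.51, 4.62 and 4.84 in HFD FST288 livers. It fell by 0.90 ± 0.15 (log2, SE) in LTKO FST288 livers, 1.87-fold lower (limma adjusted p = 0.00129). With GFP it was at 4.05 and 3.92 in LTKO and at 4.53, 4.22 and 4.18 in HFD livers, with a log2 change of -0.33 (adjusted p = 0.200). The difference of the FST288 effects on Serpinh1, LTKO minus HFD, was -0.58 ± 0.21 (adjusted p = 0.294). The call for Serpinh1 was lost with the acinar or the macrophage markers as a covariate and without HFD FST288 replicates 2 and 3, with adjusted p up to 0.0738.

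Of the 5 listed lysyl oxidases, which crosslink collagen, 4 were measured and 0 were called in any of the 5 comparisons, with 0 at an unadjusted p under 0.05 by limma. Of the 12 proteinases that cut collagen and their inhibitors, 11 were measured. In LTKO against HFD livers 1 rose with GFP, against 13.1% of all named genes called. With FST288 1 rose and 1 fell, against 10.3%. Mmp14, a proteinase anchored in the cell membrane that cuts fibrillar collagen, rose in LTKO livers with both vectors. It was at 7.23 and 7.18 in LTKO GFP livers, against 5.90, 6.06 and 5.97 in HFD GFP livers. With FST288 it was at 7.20 and 7.42 in LTKO livers, against 5.89, 5.51 and 5.67 in HFD livers. The groups were far apart, and the rise was 2.34-fold with GFP and 3.08-fold with FST288 (limma adjusted p = 1.97e-05 and 1.57e-06), called in all 24 alternatives in each. Timp3, an inhibitor bound to the matrix, fell in LTKO against HFD livers with FST288 (log2 change -0.78 ± 0.16), 1 of 2 genes of the list called there. That call was lost without LTKO FST288 replicate 1 (-0.50, adjusted p = 0.0993), without the acinar-rich HFD FST288 replicates 2 and 3 (-0.74, adjusted p = 0.136) and with the acinar covariate (-0.76, adjusted p = 0.0926).

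**Figure D4:**
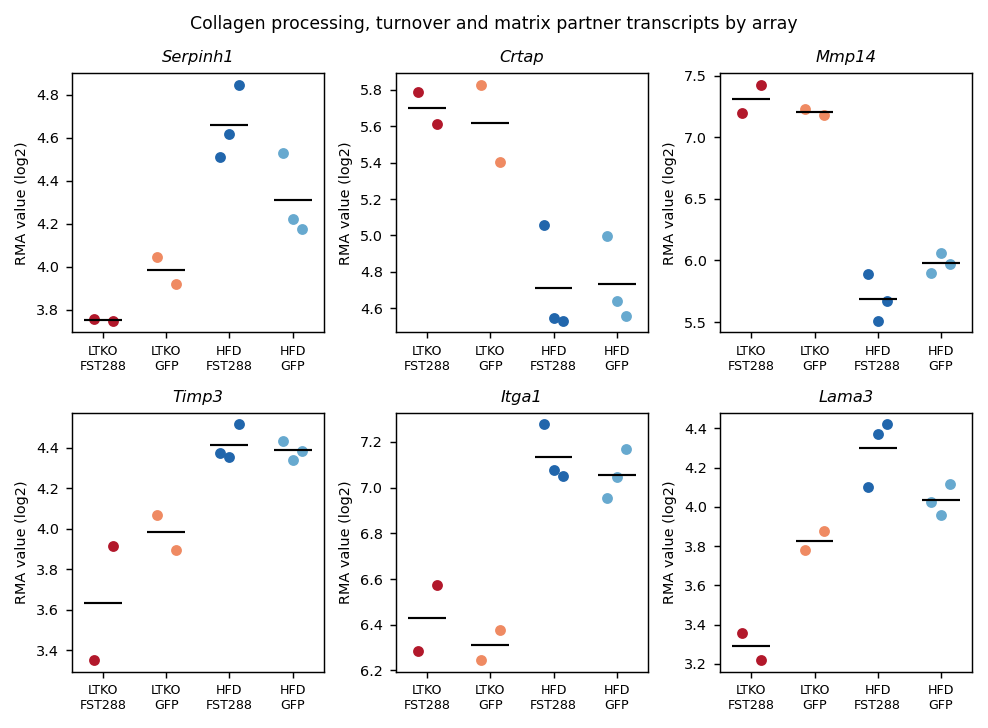
Log2 value of 6 transcripts of collagen processing, turnover, binding and basement membrane on each array (points), by group, with the group mean (line); each panel has its own axis, which does not start at 0. Mmp14 and Crtap are higher, and Itga1, Timp3 and Lama3 lower, in both LTKO groups than in both HFD groups, and Serpinh1 is lowest in LTKO FST288 livers at 3.76 and 3.75.

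Of 10 listed collagen receptors, 9 were measured. In LTKO against HFD livers 1 fell with GFP, against 13.1% of all named genes called. With FST288 1 rose and 1 fell, against 10.3%. Itga1, the alpha chain of a collagen-binding integrin, fell in LTKO livers. It was at 6.25 and 6.38 in LTKO GFP and 6.28 and 6.57 in LTKO FST288 livers, against 6.95, 7.05 and 7.17 in HFD GFP and 7.28, 7.08 and 7.05 in HFD FST288 livers. No LTKO array reached the lowest HFD array. The log2 change was -0.74 ± 0.12 (SE) with GFP and -0.71 ± 0.12 with FST288 (limma adjusted p = 9.63e-04 and 0.00151), called in all 24 alternatives in each. Itga2, the alpha chain of another collagen-binding integrin, rose with FST288 (0.48), and 12 of 23 alternatives lost that call, among them the fit without the acinar-rich arrays.

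Other matrix genes were measured for 29 of 31 listed. In LTKO against HFD livers 3 of 29 were called with GFP (1 rose and 2 fell), against 13.1% of all named genes, and 4 of 29 with FST288 (1 rose and 3 fell), against 10.3%, which puts the list near the background. Nid2, a nidogen that links laminin to type IV collagen, rose with both vectors (log2 change 0.63 in each), and Fn1, which encodes fibronectin, fell with both (-0.37 with GFP and -0.30 with FST288). The Nid2 call was lost in 13 of 24 alternatives with FST288 (limma adjusted p up to 0.530) and in 6 with GFP (up to 0.338), and the Fn1 call in 10 with FST288 (up to 0.529) and in 2 with GFP (up to 0.0690). With FST288 both were lost without either LTKO FST288 array, without the acinar-rich arrays and with the acinar or the macrophage covariate. With GFP, Nid2 was lost without LTKO GFP replicate 2 (0.37) or any 1 of the HFD GFP arrays, and Fn1 without LTKO GFP replicate 1 (-0.28). Lama4, a laminin chain of vessels, fell with GFP (-0.57) and lost the call without LTKO GFP replicate 2 (-0.44, adjusted p = 0.145). Lama3, a laminin chain of epithelia, was at 3.36 and 3.22 in LTKO FST288 livers, against 4.10, 4.37 and 4.42 in HFD FST288 livers. It fell by 1.01 ± 0.14 (log2, SE), 2.01-fold, with a limma adjusted p of 3.49e-04, and was called in all 24 alternatives. Dpt, which encodes dermatopontin, a protein that binds collagen fibrils, fell by 1.04 ± 0.20 in the same comparison and lost the call without LTKO FST288 replicate 1 (-0.80, adjusted p = 0.0613).

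None of the processing, crosslinking, proteinase, receptor and other matrix genes was called for FST288 against GFP in either background, or for the difference of those effects. These 5 lists held 25, 4, 11, 9 and 29 measured genes. In LTKO livers with FST288 against GFP, 0, 0, 1, 1 and 4 of them had an unadjusted p under 0.05 by limma, against 9.98% of all named genes. In HFD livers it was 3, 0, 1, 0 and 2, against 12%, and for the difference 1, 0, 2, 2 and 4, against 12.6%.

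Markers of the cells that make collagen, and of other cells of the liver, were read beside the collagens. Of 12 hepatic stellate markers, all measured, 3 rose (Lum, Ecm1 and Rgs5) and 1 fell (Lrat) in LTKO against HFD livers with GFP, against 13.1% of all named genes called. Ecm1 and Rgs5 kept the call in all 24 alternatives, Lum lost it without LTKO GFP replicate 2 (0.57, limma adjusted p = 0.142), and Lrat lost it in 9, without either LTKO GFP array among them (adjusted p up to 0.152). With FST288, Lrat was not called and lay lower in LTKO livers (5.98 and 6.36) than in HFD livers (6.51, 6.67 and 6.52). The called markers there were 5 that rose (Cygb, Colec11, Dcn, Lum and Rgs5) and 0 that fell, against 10.3%. Of these, 1 call (Rgs5) was kept without the acinar-rich arrays, where the log2 change was 0.71 for Cygb, 0.38 for Dcn and 0.94 for Lum. Cygb, Colec11 and Dcn also lost the call with the macrophage covariate, with which Dcn was at 0.03 (adjusted p = 0.964). Dcn lost it in 11 of 24 alternatives and Colec11 in 7, among them for both the fit without LTKO FST288 replicate 2, the array with the higher macrophage level. Rgs5, a pericyte and stellate cell gene, was at 8.36 and 8.35 in LTKO FST288 and 8.19 and 8.23 in LTKO GFP livers, against 6.87, 6.89 and 6.78 in HFD FST288 and 7.32, 7.17 and 7.26 in HFD GFP livers. The summed log2 level of the 12 markers was 69.5 to 72.1 in LTKO FST288 and 69.5 to 69.8 in LTKO GFP livers, against 65.0 to 66.0 in HFD FST288 and 66.3 to 66.7 in HFD GFP livers. No marker was at 0. In the same comparisons Col14a1 was called lower and no fibrillar collagen was called higher. The estimate was positive for 4 of 11 fibrillar collagens with GFP and for 0 of 11 with FST288. FST288 against GFP in HFD livers called 1 stellate marker, Rgs5, which fell (-0.40), and 12 of 24 alternatives lost that call, the fit without the acinar-rich arrays among them. In LTKO livers 0 were called by limma, with 1 at an unadjusted p under 0.05.

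Activated myofibroblast markers (7 of 8 measured, among them Acta2, Tagln and Timp1), portal fibroblast markers (5 of 6) and cholangiocyte markers (5 of 6) had 0 calls in the 5 comparisons. At an unadjusted p under 0.05 limma gave at most 1 gene of each list in any comparison. The summed log2 level of the myofibroblast markers was 26.1 to 26.4 in LTKO FST288, 25.3 to 27.4 in LTKO GFP, 27.1 to 28.2 in HFD FST288 and 25.7 to 27.1 in HFD GFP livers. Both LTKO FST288 sums lay below all 3 HFD FST288 sums, while the LTKO GFP sums overlapped those of the other 3 groups. The lowest HFD FST288 sum, 27.12, was almost level with the highest HFD GFP sum, 27.11. The portal fibroblast sums overlapped between all 4 groups.

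Lyve1, an endothelial marker of the sinusoids, fell in LTKO livers (2.01-fold with GFP and 1.76-fold with FST288). Kdr was called higher with FST288 (0.37), and the other 5 of 7 endothelial markers were not called. The background was 13.1% of all named genes called with GFP and 10.3% with FST288. Mean Kdr was 7.20 in LTKO FST288, 7.27 in LTKO GFP, 6.83 in HFD FST288 and 7.14 in HFD GFP livers. With GFP the Lyve1 call was kept in all 24 alternatives. With FST288 it was lost without LTKO FST288 replicate 1 (-0.53, limma adjusted p = 0.0809), without the acinar-rich arrays (-0.85) and with the acinar covariate, and the Kdr call was lost in 10 of 24 (adjusted p up to 0.446), without the acinar-rich arrays and without either LTKO FST288 array among them. Of 6 macrophage markers, 4 rose (Clec4f, Csf1r, Marco and Vsig4) in LTKO against HFD livers with FST288, the comparison in which Col27a1 was called, against 10.3% of all named genes. All 4 lost the call without the acinar-rich arrays (adjusted p 0.0561 to 0.211), and without LTKO FST288 replicate 2 all but Marco did, with log2 changes of 0.46 for Clec4f, 0.30 for Csf1r and 0.76 for Vsig4. Csf1r lost it in 15 of 24 alternatives. Their summed log2 level was 36.0 and 43.0 in LTKO FST288 livers, 33.8 to 34.0 in LTKO GFP, 32.2 to 33.6 in HFD FST288 and 32.0 to 35.7 in HFD GFP livers. Col14a1 and Col27a1 were lower on LTKO FST288 replicate 1 than on replicate 2, the array with the higher macrophage sum. Of 7 hepatocyte markers, Cps1 and Tat fell in LTKO livers with both vectors, and with GFP Apoa1 also fell and Hnf4a rose. The background was again 13.1% of all named genes with GFP and 10.3% with FST288. Cps1 kept the call in all 24 alternatives with FST288 and lost it in 14 with GFP (adjusted p up to 0.377), any 1 of the HFD arrays left out among them. Tat kept it in all 24 with GFP and lost it in 4 with FST288, without LTKO FST288 replicate 1 (-0.27) and without the acinar-rich arrays (-0.41) among them. Apoa1 and Hnf4a kept it in all 24 with GFP. In HFD livers Ttr and Apoa1 fell with FST288, and both calls were lost without the acinar-rich arrays (-0.28 and -0.30), without either of them alone and with the acinar covariate (adjusted p up to 0.651 and 0.685), and that for Apoa1 also without HFD GFP replicate 1 or 2. The summed hepatocyte level was 81.3 to 81.7 in LTKO FST288, 81.9 to 82.2 in LTKO GFP, 82.1 to 82.3 in HFD FST288 and 82.7 to 83.0 in HFD GFP livers. The part of these markers in the collagen changes was not tested beyond the covariate fits.

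The acinar markers were summed at 24.4 on both LTKO FST288 arrays, 24.6 to 25.4 in LTKO GFP, 25.9 to 66.2 in HFD FST288 and 24.4 to 25.7 in HFD GFP livers, with 9 of 12 measured and 3 called (all lower) in LTKO against HFD livers with FST288, none of them without HFD FST288 replicates 2 and 3. The pancreatic duct and islet markers, 4 of 5 measured, had 0 calls in the 5 comparisons and 0 at an unadjusted p under 0.05 by limma. Pancreatic tissue holds collagen of its own. On the acinar-rich HFD FST288 replicates 2 and 3, Col1a1 was at 4.53 and 4.58 and Col3a1 at 4.44 and 4.65, against 4.88 and 4.56 on HFD FST288 replicate 1. The summed log2 level of the fibrillar collagens was 42.05 and 43.28 on replicates 2 and 3, against 41.29 on replicate 1. It was 20.12 and 19.92 against 19.59 for the basement membrane collagens, and 90.06 and 93.06 against 90.05 for the other collagens. The part of pancreatic tissue in these levels was not tested.

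**Figure D5:**
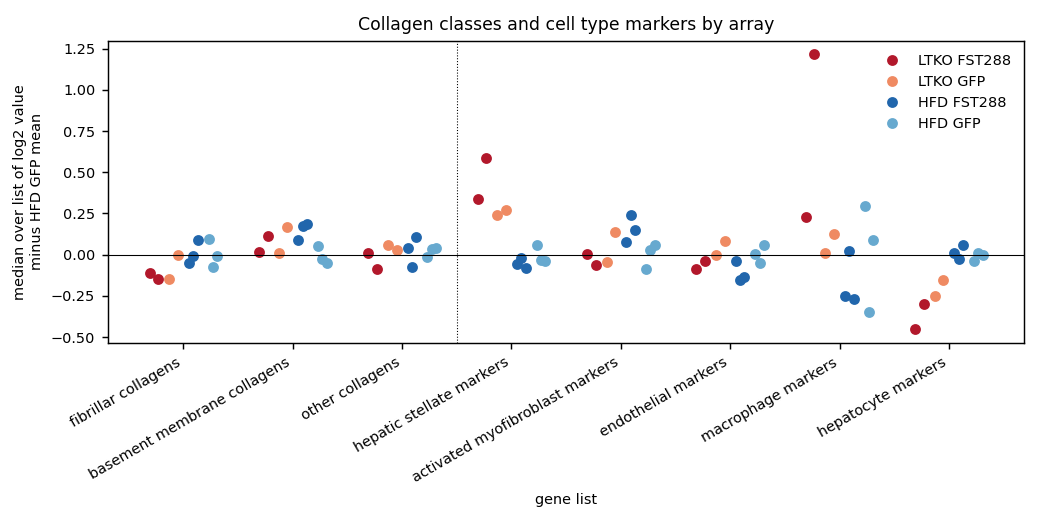
Median over each gene list of the log2 value minus the gene's HFD GFP mean, on each array (points), coloured by group, for the 3 collagen classes (left of the dotted line) and 5 marker lists. The stellate markers lie at 0.34 and 0.59 in LTKO FST288 and at 0.24 and 0.27 in LTKO GFP livers, while the collagen classes lie between -0.15 and 0.19 on all 10 arrays.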

How the data were processed

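The authors deposited 1 table of log2 values for 10 arrays, made with RMA in Affymetrix Expression Console per the submitters' processing notes (version and annotation not given in the sources used here). RMA corrects background, sets arrays to a common distribution and summarises probes per transcript cluster. The log base is not written in the table; log2 is read from the method and the range of values, 0.64 to 13.21. Of 41345 transcript clusters, 23521 were listed with 1 symbol, 1814 with several and 16010 not at all. Only the first kind was used, and the brightest cluster by mean over the 10 arrays stood for each of 1082 genes with several. The 44 collagens had 47 such clusters, and 1 collagen cluster with several symbols was left out. Col5a1, Col6a1 and Col1a2 had a second, dimmer cluster, called in no comparison.

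All 10 arrays entered 1 limma model with 4 group means (limma 3.58.1, R 4.3.3; lmFit, contrasts, eBayes with an intensity trend; 6 residual and 7.15 prior degrees of freedom). Tests were two-sided and adjusted by Benjamini-Hochberg over 22180 genes. No filter was set on dim genes. Arrays give no counts, so their number limits the precision. The procedure was tested on simulated data. Members, classes, gene lists, tests and alternatives were chosen with earlier results of these data known. Values on every array are given for called collagens and for the 3 of each class with the smallest p in any comparison, and for Col1a1, Col4a1 and Col18a1, added after their values were seen; list genes named were those called in a comparison. Sequences are from RefSeq GRCm38.p6; because the table names no build, that annotation served otherwise for names and neighbours alone. Single arrays were left out in turn, and other alternatives changed the moderation, weights, normalization, filter, clusters, threshold, a replicate block and marker covariates.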

Additional observations from a re-analysis of the deposited data

How the results depend on the processing

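The arrays are few, and single arrays decide several values; a group left with 1 array is assumed to vary like the other groups. The count of collagens called stayed at 0 for FST288 in LTKO livers and for the difference of the effects in every alternative run. With an adjusted p under 0.1 as threshold it was 1 for FST288 in HFD livers (Col15a1), 3 for LTKO against HFD livers with GFP (Col14a1, Col8a1 and Col8a2) and 5 with FST288. For LTKO against HFD livers with FST288 the count was 4 when genes at or under the median mean, 20 of the 44 collagens among them, were left out (Col4a2 and Col5a3 added), 1 when all transcript clusters were adjusted together, 1 with the replicate block, 0 without both acinar-rich arrays and 0 with the acinar markers as a covariate. Leaving out each array in turn gave 0 to 2 there and 1 to 2 with GFP, where Col3a1 was added without LTKO GFP replicate 2. With the macrophage markers as a covariate, chosen after seeing the data, the count with GFP was 2 (Col14a1 and Col8a2), and Csf1r, itself in that covariate, reversed to -0.19 with FST288. Same-numbered arrays deviated from their group means with r from -0.07 to 0.03. In LTKO against HFD livers r was 0.0096 to 0.0336, each time the best match among the HFD arrays. With 2 arrays in a group the deviations mirror each other, so this check cannot decide whether the numbers share a source. With the replicate block Col14a1 in LTKO against HFD livers with FST288 was -0.63 (limma adjusted p = 0.0677) and no other collagen call was lost. The medians of the collagen classes lay between -0.35 and 0.19 over all alternatives. Over all named genes the number called ranged from 6 (without both acinar-rich arrays) to 411 for FST288 in HFD livers, 0 to 237 in LTKO livers, 1870 to 3920 for LTKO against HFD livers with GFP, 859 to 3011 with FST288 and 1 to 266 for the difference of the effects. The difference has no fit on only the arrays compared, since it uses all 10. Signal near background limits what the dimmer collagens can show.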
